A study of Homo sapiens with 6 samples.

Results

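DDAH1, HIPK3, ELL2, CPEB3, SMIM13, SLC25A30 and SDPR are 7 genes, of 23686 in the deposited tables, whose RNA was lower with both LGR6 siRNAs than with the control siRNA in lung cancer cells. They were chosen by that decrease, so their levels against the control are given as a description with no test. In the fit across both lines that ranked 14481 genes by the smaller of their 2 siRNA effects, they stood at ranks 4 (CPEB3), 7 (ELL2), 13 (SDPR), 14 (DDAH1), 18 (HIPK3), 22 (SMIM13) and 23 (SLC25A30). RNA was sequenced from 2 human non-small cell lung carcinoma lines, HCC15 and A427, both labelled wild type and grown in RPMI with 5% fetal bovine serum. Each line gave 1 library with LGR6 siRNA 4, 1 with LGR6 siRNA 2 and 1 with a control siRNA labelled Tax, taken 48 h after transfection, so all 6 groups were transfected and hold 1 library each. A spread between replicates of the same line and siRNA could therefore not be measured.

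Those of the 7 genes with an established function have different roles. DDAH1 breaks down methylated arginines that inhibit nitric oxide synthases. HIPK3 is a nuclear kinase of the homeodomain-interacting family. ELL2 is an elongation factor that, in the super elongation complex, keeps RNA polymerase II moving along a gene, and CPEB3 binds the 3′ untranslated regions of messenger RNAs and controls their translation. SLC25A30 is a carrier of the inner mitochondrial membrane, and SDPR, now named cavin-2, coats caveolae, the small pits of the plasma membrane. SMIM13 encodes a small membrane protein whose function is not established. LGR6, the target of the siRNAs, is a receptor for R-spondins, which strengthen Wnt signalling. A siRNA guides the cell's silencing complex to RNA that pairs with it.

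Of the 7 genes, 5 have a promoter in the RefSeq table used (build GRCh38.p14), and 10 start sites are listed for them, each covered by 250 bases before and 50 after the start. ELL2 and SLC25A30 have no entry. The SMIM13, CPEB3 and SDPR promoters are shown because SMIM13 differed most between the siRNAs and SDPR most between the lines, each with a single listed start, and because CPEB3 shares a short motif with SMIM13. Capitals mark every match, on either strand and overlaps included, to the TATA box TATAAA, the box named CCAAT, the GC box GGGCGG, the cAMP response element TGACGTCA, the E-box CACGTG, the AP-1 motif TGANTCA, the TCF/LEF motif CTTTGA, the TEAD motif GGAATG, and GGGANNTGT, part of the element that ZNF143 binds. In that order they occur in 11.5%, 34.6%, 45%, 1.85%, 7.26%, 7.71%, 12.9%, 14% and 6.42% of the promoters in the table.
SMIM13 (chr6:11093584-11093883, plus strand): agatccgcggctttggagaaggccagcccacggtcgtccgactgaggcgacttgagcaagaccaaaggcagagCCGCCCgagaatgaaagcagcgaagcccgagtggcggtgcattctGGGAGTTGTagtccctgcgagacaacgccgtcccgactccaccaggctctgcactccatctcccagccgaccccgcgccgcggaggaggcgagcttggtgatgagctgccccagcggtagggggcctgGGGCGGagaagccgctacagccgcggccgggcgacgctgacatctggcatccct
CPEB3 (chr10:92291029-92291328, minus strand, the first of 2 listed starts): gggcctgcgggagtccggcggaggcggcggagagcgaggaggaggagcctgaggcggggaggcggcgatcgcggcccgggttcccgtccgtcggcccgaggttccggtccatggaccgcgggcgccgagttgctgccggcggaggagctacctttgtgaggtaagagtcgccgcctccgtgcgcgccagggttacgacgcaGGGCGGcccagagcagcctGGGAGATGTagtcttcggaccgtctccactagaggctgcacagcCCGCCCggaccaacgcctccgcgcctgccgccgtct
SDPR (chr2:191847039-191847338, minus strand): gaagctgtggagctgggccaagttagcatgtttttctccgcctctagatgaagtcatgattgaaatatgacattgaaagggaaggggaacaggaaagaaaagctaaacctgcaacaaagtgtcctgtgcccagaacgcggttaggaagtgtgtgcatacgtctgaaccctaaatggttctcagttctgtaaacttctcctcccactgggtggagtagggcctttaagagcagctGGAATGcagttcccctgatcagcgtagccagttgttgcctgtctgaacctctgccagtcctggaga

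The SMIM13 promoter held 29 CpG dinucleotides in 300 bases and the CPEB3 promoter 40, against a median of 14 over 35116 promoters, whereas the SDPR promoter held 5. GC content was 67% for SMIM13, 73% for CPEB3 and 49.3% for SDPR, beside a median of 58.7%. SMIM13 and CPEB3 each had 2 GC boxes, and SDPR had none. The motif GGGANNTGT lay 132 bases before the SMIM13 start and 30 bases before the CPEB3 start. It was added to the search after these sequences had been read, so its share among them is a description only. It occurred in 6.42% of all promoters and in 4 of the 10 promoters of these genes, which belong to SMIM13, CPEB3 (both starts) and 1 of 3 starts of DDAH1. The SDPR promoter carried 1 TEAD match, 16 bases before its start, as 14% of promoters do. The TCF/LEF letters, the motif of the Wnt-responsive factors, were found near 1 start only, the second of CPEB3, and in 12.9% of all promoters. DDAH1, HIPK3 and CPEB3 have several listed starts, and the deposited gene-level values do not tell which was used.

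The libraries held 25546438 to 28987906 reads in genes. The target was low in A427: LGR6 had 77 reads with siRNA 4, 39 with siRNA 2 and 257 with the control siRNA in HCC15, against 0, 0 and 5 reads in A427. In HCC15 this left 30.7% of the control level with siRNA 4 (95% interval 23.5% to 39.8%) and 14% with siRNA 2 (9.72% to 19.7%). In A427 the upper limits that the read counts allow, 116% of control with siRNA 4 and 122% with siRNA 2, include no change. The keratin genes KRT8 and KRT18, epithelial markers, ran from 275.57 to 4071.78 TPM over all libraries. KRT8, KRT18, KRT19 and CDH1 were each higher in every HCC15 library than in every A427 library, whereas EPCAM went the other way. EPCAM was higher in A427 (402.95 to 457.08 TPM) than in HCC15 (27.57 to 53.85 TPM). KRT19 reached at most 0.38 TPM and CDH1 3.52 TPM among A427 libraries, while KRT19 was at 12.05 to 36.74 TPM in HCC15. Within HCC15 each of the 5 markers was highest with siRNA 2 and lowest with siRNA 4. For HCC15, CDH1 stood at 5.64 TPM with siRNA 4, 45.97 with siRNA 2 and 8.16 with the control. The summed epithelial markers (5 genes) were at 3614 TPM with siRNA 4, 7902 with siRNA 2 and 6011 with the control in HCC15, and at 989, 1234 and 1263 TPM in A427. Their part in the results below was not tested. Lung and squamous lineage markers NKX2-1 and TP63 together reached at most 0.15 TPM, the 3 endothelial markers 0.25 TPM and the 4 fibroblast markers 11.52 TPM, and DCN and CD3E had no reads. The leukocyte markers summed to at most 32.49 TPM, nearly all of it CD68 (up to 31.27 TPM).

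Values below are in CPM, the reads of a gene scaled to the TMM-adjusted size of its library, unless TPM, which also adjusts for gene length, is named, and each percentage is the level left relative to the control library of the same line. The 95% intervals are exact binomial and cover counting error only. Intervals that do not overlap therefore show no difference beyond the spread between replicates, which was not measured. For DDAH1, HIPK3, ELL2, CPEB3, SMIM13 and SLC25A30, the level left ranged from 8.12% to 57.3% over 24 comparisons of a silenced with a control library, with a median of 31.4%. All 7 genes were lower in 4 of 4 LGR6 siRNA libraries than in the control library of their line, a pattern tied to how they were chosen and resting for SDPR in A427 on 0 to 4 reads, and 16.4% of the 14481 genes tested had that pattern. The 7 also passed an adjusted p under 0.05 (edgeR, Benjamini-Hochberg over all genes) as lower with siRNA 4, as did 7.95% of all genes, and as lower with siRNA 2, as did 4.66%. Without the HCC15 control library 3 of the 7 still passed with siRNA 4 (CPEB3, DDAH1 and HIPK3) and 1 with siRNA 2 (SMIM13), and by limma on either TPM scale SDPR passed with neither siRNA. Nothing is read from these counts, since the same contrasts chose the genes. In bulk RNA, fewer cells that express a gene and less of its RNA per cell cannot be told apart.

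**Figure D1:**
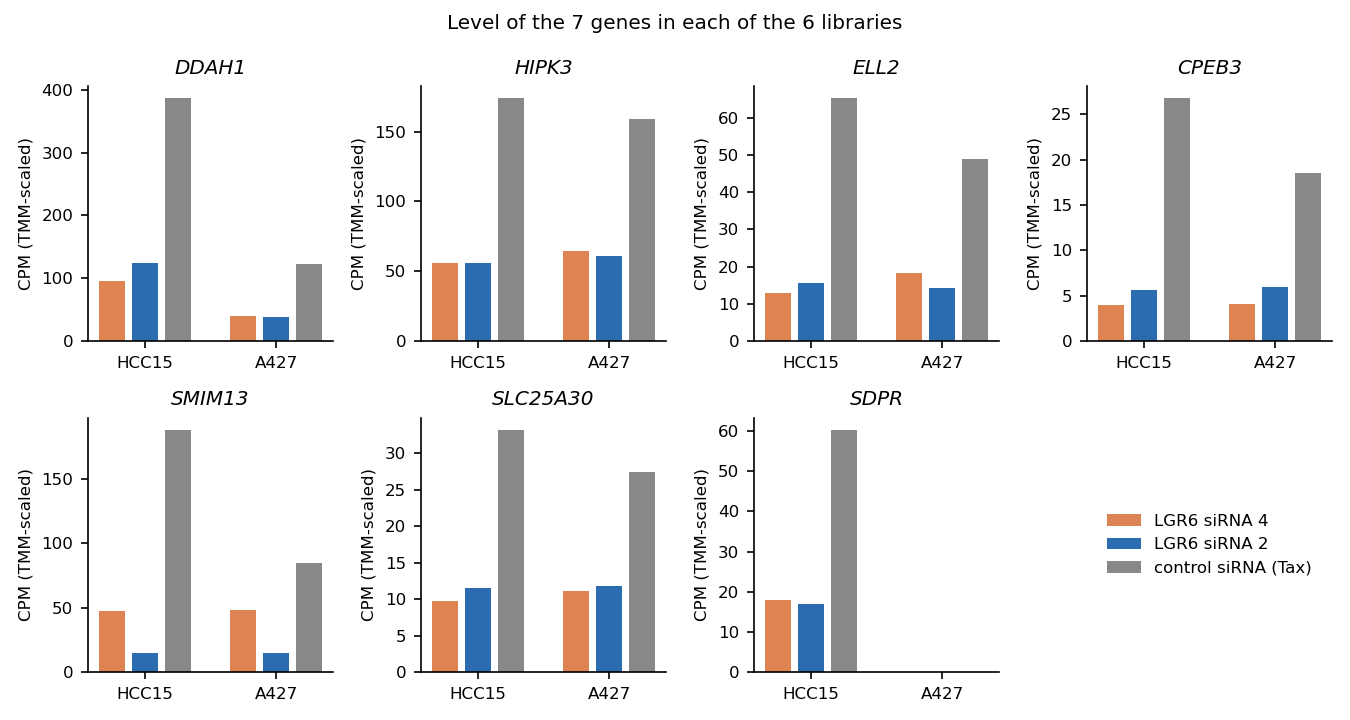
Bars show the TMM-scaled CPM of each gene in each library (y axis, from 0), grouped by line on the x axis, with LGR6 siRNA 4, LGR6 siRNA 2 and the control siRNA in turn, 1 library per bar. The control bar is the tallest in each group, and SDPR in A427 is too low to see (at most 0.137 CPM).

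DDAH1 was the most abundant of the 7 per length in the HCC15 control library, with 46.9 TPM with siRNA 4, 68.3 TPM with siRNA 2 and 197 TPM with the control in HCC15. In CPM it was at 96.3 with siRNA 4, 125 with siRNA 2 and 387 with the control in HCC15. In A427 it was at 40.1, 38.1 and 123 CPM with siRNA 4, siRNA 2 and control. The levels left were 24.9% (23.8% to 26%) and 32.2% (31% to 33.4%) in HCC15 with siRNA 4 and siRNA 2, and 32.4% (30.3% to 34.7%) and 30.8% (28.7% to 33.1%) in A427. The share was lowest in the HCC15 library with siRNA 4, whose counting interval lay below the others, which overlapped. The line difference was tested: DDAH1 was 2.92-fold higher in HCC15 than in A427 over all siRNAs (log2 1.54, SE 0.12, edgeR adjusted p = 4.6e-06).

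HIPK3 had 56.2 CPM with siRNA 4, 55.7 with siRNA 2 and 174 with the control in HCC15. In A427 the values were 64.3, 60.7 and 159 CPM. The siRNAs left 32.2% and 32% of control in HCC15 and 40.5% and 38.2% in A427, for siRNA 4 and siRNA 2 in that order. The counting intervals of the 2 lines, at most 34.2% in HCC15 and at least 36.1% in A427, did not overlap. Those of the 2 siRNAs within a line did. The difference in response between the lines, tested below, did not pass for HIPK3 (log2 -0.29, SE 0.31). Its level hardly differed between the lines, with log2 -0.06 for HCC15 against A427 (SE 0.11, edgeR adjusted p = 0.623).

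ELL2 was at 13 CPM with siRNA 4, 15.6 with siRNA 2 and 65.3 with the control in HCC15, and at 18.3, 14.2 and 48.8 CPM in A427. The share left was 19.9% (17.6% to 22.4%) with siRNA 4 and 23.9% (21.4% to 26.5%) with siRNA 2 in HCC15, against 37.4% (33.7% to 41.5%) and 29.1% (25.9% to 32.7%) in A427. siRNA 4 thus left more than siRNA 2 in A427, where the intervals did not overlap. In HCC15 its share was the smaller, but the intervals of the 2 siRNAs overlapped. In the RefSeq annotation the ELL2 span overlaps that of CAST, which had 5246 to 15910 reads per library. The sources used here do not say whether counting used strand, so reads in the shared stretch are uncertain.

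CPEB3, the translation regulator, was the lowest of the 7 per length in HCC15, with 1.29 TPM with siRNA 4, 2.05 TPM with siRNA 2 and 9.28 TPM with the control. In CPM it was at 3.94 with siRNA 4, 5.58 with siRNA 2 and 26.8 with the control in HCC15, and at 4.13, 5.95 and 18.5 in A427. It rested on 101 reads with siRNA 4, 159 with siRNA 2 and 706 with the control in HCC15, and on 114, 156 and 541 in A427. These left 14.7% (11.8% to 18.1%) and 20.8% (17.4% to 24.7%) in HCC15 with siRNA 4 and siRNA 2, and 22.3% (18.1% to 27.4%) and 32.1% (26.7% to 38.4%) in A427. siRNA 4 left less than siRNA 2 in both lines, but the fit across lines put this at log2 -0.51 (SE 0.24), not past the threshold (edgeR adjusted p = 0.183). The CPEB3 span overlaps that of MARCH5 (934 to 2059 reads per library), with the same doubt about strand.

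SMIM13 differed most between the siRNAs. In HCC15 it was at 47.8 CPM with siRNA 4, 15.3 with siRNA 2 and 188 with the control. In A427 it was at 48.6 CPM with siRNA 4, 15.4 with siRNA 2 and 84.8 with the control. The silenced libraries of the 2 lines thus had nearly the same level with each siRNA, while the HCC15 control library was the higher of the controls. The share left was 25.4% (23.8% to 27%) with siRNA 4 and 8.12% (7.34% to 8.95%) with siRNA 2 in HCC15, and 57.3% (53.6% to 61.2%) and 18.2% (16.3% to 20.2%) in A427. The gene ERVFRD-1, whose span overlaps that of SMIM13, had no reads in any library.

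SLC25A30, the mitochondrial carrier gene, was at 9.7 CPM with siRNA 4, 11.5 with siRNA 2 and 33.2 with the control in HCC15, and at 11.2, 11.8 and 27.4 CPM in A427. The share left was 29.2% (25.3% to 33.6%) and 34.5% (30.3% to 39.2%) in HCC15 and 41% (35.8% to 46.8%) and 43% (37.6% to 49%) in A427, for siRNA 4 and siRNA 2. The siRNA intervals overlapped in each line.

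SDPR was measurable in HCC15 only. It had 462 reads with siRNA 4, 483 with siRNA 2 and 1587 with the control there, or 18, 16.9 and 60.3 CPM. In A427 it had 2, 0 and 4 reads, and 3 reads of the A427 control library correspond to 0.106 CPM, so a decrease was not detectable at this depth in A427. The share left in HCC15 was 29.8% (26.8% to 33.1%) with siRNA 4 and 28.1% (25.3% to 31.1%) with siRNA 2. Its fitted effects against control, log2 -1.73 with siRNA 4 and -1.85 with siRNA 2, therefore rested on HCC15. Without the HCC15 library of the siRNA itself, the effect rested on the A427 reads alone and was -0.58 for siRNA 4 and -5.17 for siRNA 2.

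**Figure D2:**
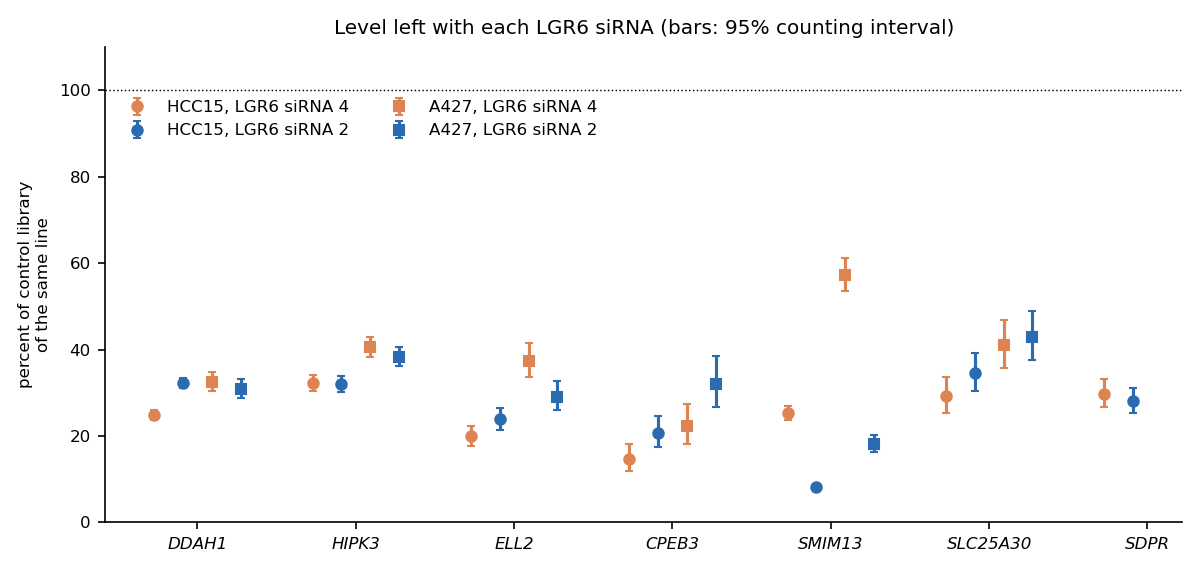
Points give the level of each gene with LGR6 siRNA 4 (orange) or LGR6 siRNA 2 (blue) as a percentage of the control library of the same line (y axis, dotted line at 100%), circles for HCC15 and squares for A427, with 95% counting intervals. SMIM13 spans 8.12% to 57.3%, the widest range, and SDPR is shown for HCC15 only.

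siRNA 4 was set against siRNA 2 in a fit of line plus siRNA over all 6 libraries, in which the lines serve as the repeats of each siRNA. This contrast was not the one that chose the genes, although choosing genes low with both siRNAs leaves less room for a difference. Of the 7 genes, 1 passed, SMIM13, which was 3.16-fold higher with siRNA 4 than with siRNA 2 (log2 1.66, SE 0.28, edgeR adjusted p = 0.00684). Over all genes 16.5% passed, so 1 of 7 is close to the background. Without the HCC15 siRNA 2 library the SMIM13 difference was log2 1.38 with an edgeR adjusted p of 0.0695, no longer past the threshold. HIPK3 at log2 0.05 (SE 0.13), ELL2 at 0.07 (SE 0.22), SDPR at 0.12 (SE 0.24), DDAH1 at -0.15 (SE 0.14), SLC25A30 at -0.15 (SE 0.18) and CPEB3 at -0.51 (SE 0.24) did not pass. Their edgeR adjusted p lay between 0.183 and 0.849, which does not show that the siRNAs act alike on them.

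HCC15 was set against A427 in the same fit. Of the 7 genes, 2 passed as higher in HCC15, DDAH1 and SDPR, and 0 as lower, where 76.5% of all genes passed in either direction. SDPR was higher by log2 8.73 (SE 0.30, edgeR adjusted p = 7.4e-09), with 6 reads in all 3 A427 libraries together. SMIM13 stood at log2 0.40 (SE 0.22, edgeR adjusted p = 0.128), CPEB3 at 0.19 (SE 0.18) and SLC25A30 and ELL2 at 0.03 (SE 0.14) and 0.04 (SE 0.17). The SMIM13 value turned on single libraries. Without the A427 siRNA 4 library it passed, at log2 0.62 (edgeR adjusted p = 0.0391), and it was 0.02 without the HCC15 control library and 0.01 without the A427 control library.

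**Figure D3:**
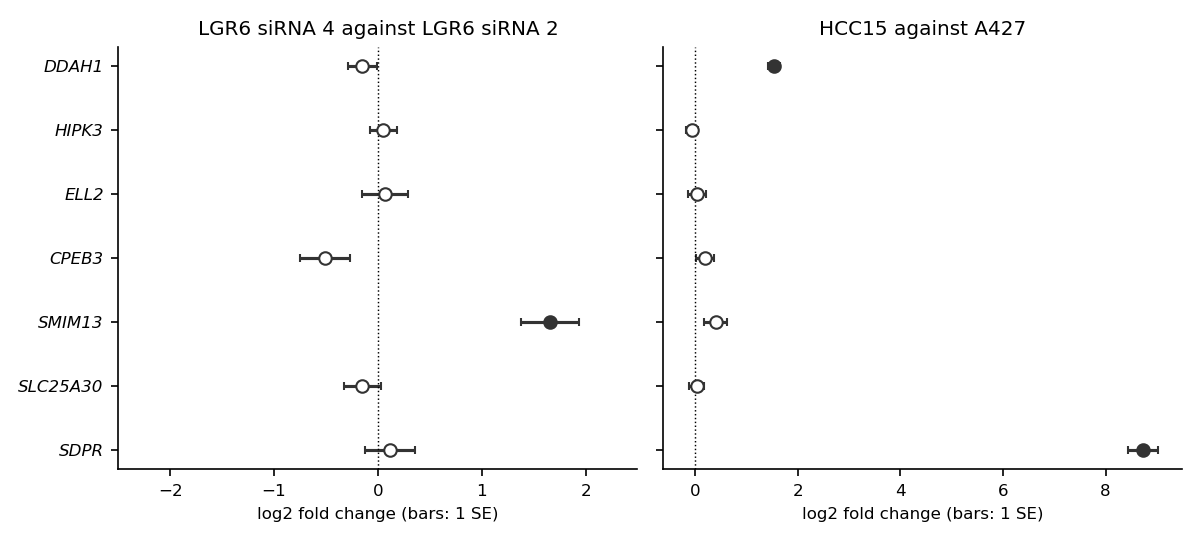
Log2 fold changes from edgeR (x axes, bars 1 SE) of the 7 genes (rows) for LGR6 siRNA 4 against LGR6 siRNA 2 (left) and HCC15 against A427 (right), with filled points for an adjusted p under 0.05. SMIM13 stands apart on the left, and DDAH1 and SDPR on the right.

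Whether the lines responded to a different extent was tested as the response to both siRNAs in HCC15 minus that in A427. Between lines with the same siRNA, 11 of 12 comparisons (6 genes, both siRNAs) had a smaller share left in HCC15 than in A427, the exception being DDAH1 with siRNA 2. The comparisons use the same libraries and are not independent. The share over all genes was not computed for this count, so nothing is read from it. In HIPK3, ELL2, CPEB3 and SLC25A30, 4 of the 6 genes, both HCC15 shares lay below both A427 shares. That order held for 15.4% of 13740 genes with control reads in both lines, and for 20% of the 2372 genes lower in all 4 LGR6 siRNA libraries. In the fit over all libraries the difference was log2 -1.17 for SMIM13 (SE 1.24), -0.62 for CPEB3 (SE 0.55) and -0.61 for ELL2 (SE 0.41). Leaving out 1 library moved the SMIM13 value to -2.19 (HCC15 siRNA 4 left out), -0.57 (HCC15 siRNA 2) or -0.12 (A427 siRNA 4). None of the 7 passed, each with an edgeR adjusted p of 1, and 0% of all genes passed by edgeR. At an unadjusted p under 0.05 by edgeR there were 78 of 14481 genes, none of them among the 7, and DESeq2 also passed 0 of the 7. The fit takes both siRNAs as 1 arm with no siRNA term, so differences between the siRNAs within a line count as its spread. A gene that did not pass is therefore not shown to respond alike in the lines. The 6 genes measurable in A427 were left at 18.2% to 57.3% there, where the control library held 5 LGR6 reads, and at 8.12% to 34.5% in HCC15.

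Of 14 paralogs of these genes, 3 passed the threshold with 1 siRNA (HIPK2, CPEB2 and PTRF) and 0 with both by edgeR, whereas DESeq2 passed CPEB2 with both and limma on log2(TPM + 1) passed no paralog with either. That is 2 of 14 lower with siRNA 4, where 7.95% of all genes were, and 1 of 14 lower with siRNA 2, where 4.66% were. DDAH2, the paralog of DDAH1, was at log2 -0.34 with siRNA 4 (SE 0.23) and 0.02 with siRNA 2 (SE 0.23), with edgeR adjusted p of 0.369 and 0.974. HIPK1 stood at 0.18 (SE 0.11) and 0.05 (SE 0.11). HIPK2 was lower with siRNA 4, at log2 -0.58 (SE 0.14, edgeR adjusted p = 0.0324) and stood at -0.20 with siRNA 2 (SE 0.14). HIPK4 had at most 13 reads in a library. The elongation factor genes ELL and ELL3 were at 0.45 and -0.82 with siRNA 4 and at 0.04 and -0.53 with siRNA 2, none past the threshold.

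CPEB2 fell by 0.51 with siRNA 4 (SE 0.14, edgeR adjusted p = 0.0478) and was at -0.53 with siRNA 2 (SE 0.14, edgeR adjusted p = 0.0576). With DESeq2's size factors in the edgeR fit its siRNA 4 value no longer passed (edgeR adjusted p = 0.0503). CPEB1 and CPEB4 did not pass with either siRNA. The carriers SLC25A14 and SLC25A27 lay between 0.00 and 0.11 in size in both contrasts. Of the other cavins, PTRF (cavin-1) fell by 0.48 with siRNA 2 (SE 0.11, edgeR adjusted p = 0.0421, and 0.0501 with DESeq2's size factors) and stood at 0.00 with siRNA 4, whose sign changed with the scaling, and PRKCDBP and MURC did not pass.

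**Figure D4:**
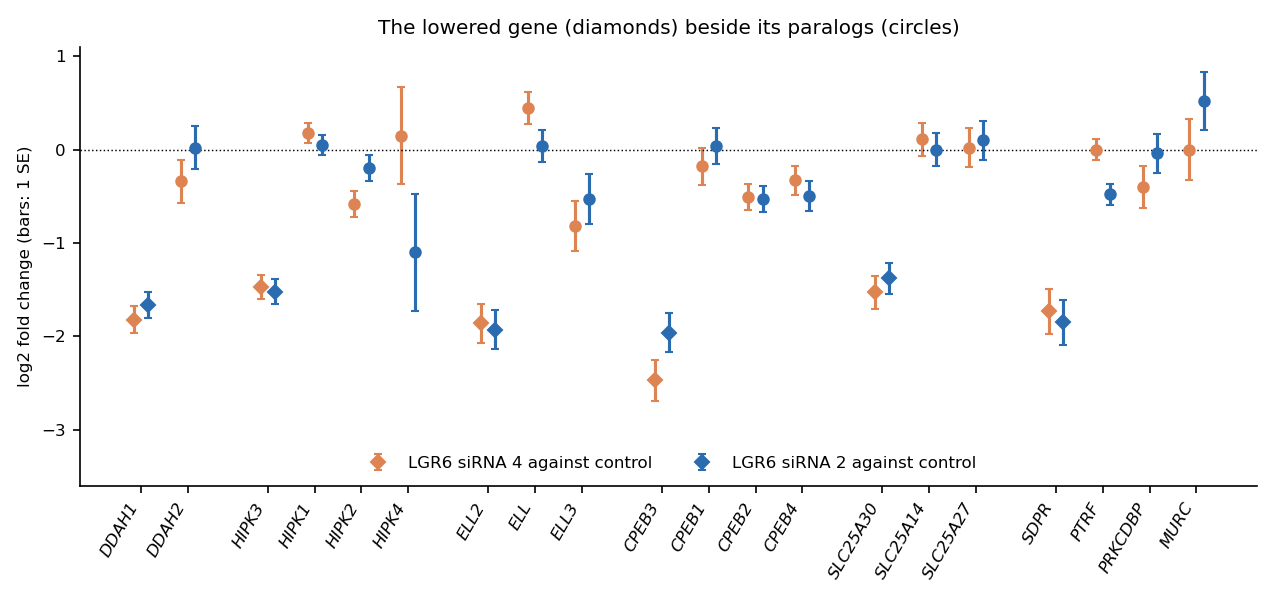
Log2 fold changes against the control siRNA (y axis, bars 1 SE, edgeR) with LGR6 siRNA 4 (orange) and LGR6 siRNA 2 (blue) for 6 of the genes (diamonds, chosen for these values) and their paralogs (circles). The diamonds lie at -1.38 or below, and of the circles only HIPK4, which had at most 13 reads, reaches below -1.

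Beyond paralogs, 85 genes of the pathways around DDAH1, HIPK3, ELL2, CPEB3, SLC25A30 and SDPR were listed, paralogs included, and 79 had enough reads to test. With siRNA 4, 10 were lower (12.7%) and 8 higher (10.1%), where 7.95% and 4.58% of all genes passed. With siRNA 2, 3 were lower (3.8%) and 6 higher (7.59%), where 4.66% and 2.96% of all genes passed. With DESeq2's size factors in the edgeR fit the siRNA 2 split was 1 lower and 7 higher. The median log2 fold change of the 79 genes was -0.00 with siRNA 4 and 0.04 with siRNA 2, against -0.01 for all genes tested in both. These counts depended on single libraries. Without the HCC15 control library they were 0 with either siRNA, without the A427 control library 5 with siRNA 4 and 2 with siRNA 2, and without the HCC15 library of the siRNA itself 2 each.

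Around DDAH1, of 13 genes tested, 2 fell and 4 rose with siRNA 4, and 2 rose with siRNA 2. CARM1, an arginine methyltransferase, rose by log2 0.80 (SE 0.13) and 0.87 (SE 0.13) with siRNA 4 and siRNA 2, and GCH1, the first enzyme of the synthesis of the nitric oxide synthase cofactor tetrahydrobiopterin, by 0.62 (SE 0.15) and 0.85 (SE 0.15). Their edgeR adjusted p were 0.00688 and 0.00862 for CARM1 and 0.0299 and 0.0139 for GCH1. PRMT1 and PRMT6, which also methylate arginine, rose with siRNA 4 by 0.54 and 0.61, while PRMT3 (edgeR adjusted p = 0.00901) and the arginine synthesis gene ASS1 (log2 -1.39) fell. These 4, and the synthase genes below, were named after their values were seen. The synthase genes NOS1 and NOS2 had too few reads to test, and NOS3 did not pass.

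Around ELL2, of 22 genes of the super elongation complex and its partners, 2 fell and 2 rose with siRNA 4, and 2 rose with siRNA 2. MLLT1 (ENL) and AFF1, subunits of that complex, rose with both siRNAs. MLLT1 had 51.2 CPM with siRNA 4, 62.2 with siRNA 2 and 23 with the control in HCC15, and 97, 102 and 39.3 CPM in A427. Its log2 fold changes were 1.23 with siRNA 4 (SE 0.13) and 1.40 with siRNA 2 (SE 0.13), with edgeR adjusted p of 0.00153 and 0.00278. AFF1 rose by 0.82 (SE 0.12) and 0.72 (SE 0.12), with edgeR adjusted p of 0.00588 and 0.0138. The ELL partner gene EAF1 and the cyclin gene CCNT2, both named after their values were seen, fell with siRNA 4, to log2 -1.25 and -0.77 against control. Of the 22, the 2 that fell and the 2 that rose with siRNA 4 were 9.09% each, where 7.95% and 4.58% of all genes did. With siRNA 2, 0% fell and 9.09% rose, where 4.66% and 2.96% of all genes did. ELL2 was chosen for its fall, so nothing is read from its direction beside theirs.

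Among the 8 HIPK and DYRK kinases, DYRK2 moved in opposite directions, falling by 0.74 with siRNA 4 (SE 0.18, edgeR adjusted p = 0.0353) and rising by 0.79 with siRNA 2 (SE 0.18, edgeR adjusted p = 0.0344). Around CPEB3, of 18 genes of the CPEB family and of poly(A) tail control, 2 fell and 1 rose with siRNA 4 and 1 fell with siRNA 2. These were CPEB2, the deadenylation adaptors TOB1, which fell by 0.96 with siRNA 4, and TOB2, which rose by 0.72, and the deadenylase gene CNOT6, which fell by 0.50 with siRNA 2 (edgeR adjusted p = 0.0495, and 0.0549 with DESeq2's size factors). TOB1, TOB2 and CNOT6 were named after their values were seen. Of the 9 carriers tested beside SLC25A30, 0 passed with either siRNA by edgeR, DESeq2 or limma on log2(TPM + 1), and 2 with siRNA 4 and 0 with siRNA 2 had an unadjusted p under 0.05 by edgeR.

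Around SDPR, of 9 genes of caveolae, 2 fell and 1 rose with each siRNA. CAV1, the main coat protein of caveolae, was at 34.9 CPM with siRNA 4, 16.9 with siRNA 2 and 69.7 with the control in HCC15, and at 154, 54.2 and 206 CPM in A427. It fell with both siRNAs, with log2 -0.69 for siRNA 4 (SE 0.16) and -1.99 for siRNA 2 (SE 0.16), with edgeR adjusted p of 0.026 and 0.00246. CAV2, named after its values were seen, fell by 0.95 with siRNA 4 (edgeR adjusted p = 0.0158) and stood at -0.54 with siRNA 2. DNM2, a GTPase that pinches off vesicles, rose by 0.75 (SE 0.13) and 0.72 (SE 0.13) with siRNA 4 and siRNA 2, with edgeR adjusted p of 0.0103 and 0.0185. SDPR in HCC15 thus stood beside 1 caveolin gene, CAV1, that passed as lower with both siRNAs. CAV2 was also below the control of its line in every LGR6 siRNA library, as were 16.4% of all genes tested. It did not pass with siRNA 2 (edgeR adjusted p = 0.118). In HCC15 it was left at 46.2% with siRNA 4 and 81.6% with siRNA 2. In A427 the CAV2 shares were 56.9% with siRNA 4 and 56.5% with siRNA 2.

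The genes whose 4 log2 ratios to control lay nearest to the mean of the 7 (-1.99 and -2.05 with siRNA 4 and siRNA 2 in HCC15, -1.22 and -1.48 in A427), among 12611 genes with a mean of at least 1 CPM, were SUZ12, CSRP2BP, SLC36A1 and CHAC1. Their root mean square distances were 0.32, 0.40, 0.41 and 0.42, where those of the 7 genes themselves ran from 0.22 (ELL2) to 0.92 (SMIM13). SUZ12, a Polycomb subunit, had 32.6 CPM with siRNA 4, 32.6 with siRNA 2 and 111 with the control in HCC15, and 88.7, 109 and 212 CPM in A427. SLC36A1, an amino acid transporter gene, had 17.4, 8.77 and 41 CPM in HCC15 and 44.4, 33.3 and 89.2 CPM in A427. CSRP2BP, a chromatin factor gene, had 3.98, 3.68 and 12.3 CPM in HCC15 and 13.4, 11.6 and 25.8 CPM in A427. CHAC1, whose product degrades glutathione, had 9.43, 9.36 and 33 CPM in HCC15 and 3.19, 1.94 and 4.9 CPM in A427. The measure uses the ratios that chose the 7 genes, computed with 0.5 added to each CPM, and is a description over 4 libraries. The A427 means include SDPR, at -0.15 with siRNA 4 and -0.35 with siRNA 2, which rests on 0 to 4 reads. Without SDPR they were -1.40 with siRNA 4 and -1.66 with siRNA 2. The nearest genes were then SUZ12, BCAT1, GNB4 and SLC36A1, an alternative chosen after the data were seen, so CSRP2BP and CHAC1 depended on including SDPR.

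The 3′ untranslated region was long in most of these genes. In GENCODE release 29, taking for each gene the longest coding sequence among its APPRIS principal transcripts where it has one, it measured 4131 bases in SMIM13, 3773 in ELL2, 3570 in CPEB3, 3455 in HIPK3, 2967 in DDAH1, 2658 in SLC25A30 and 1621 in SDPR. All 7 were above the median of 1093 bases over 13389 genes tested with a coding transcript, and 6 of them at or above its 78.3 percentile. SDPR stood at percentile 62.6. Whole transcripts were also at or above the median in length, at percentiles 50.3 (SDPR) to 90.7 (HIPK3). The coding sequence was of all sizes, 273 bases in SMIM13 (percentile 1.48) and 3645 in HIPK3 (percentile 90.8), with a median of 1275 bases in the 7 genes and 1416 in all. No test was made of this, and the transcript each line used is not known from gene-level values.

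**Figure D5:**
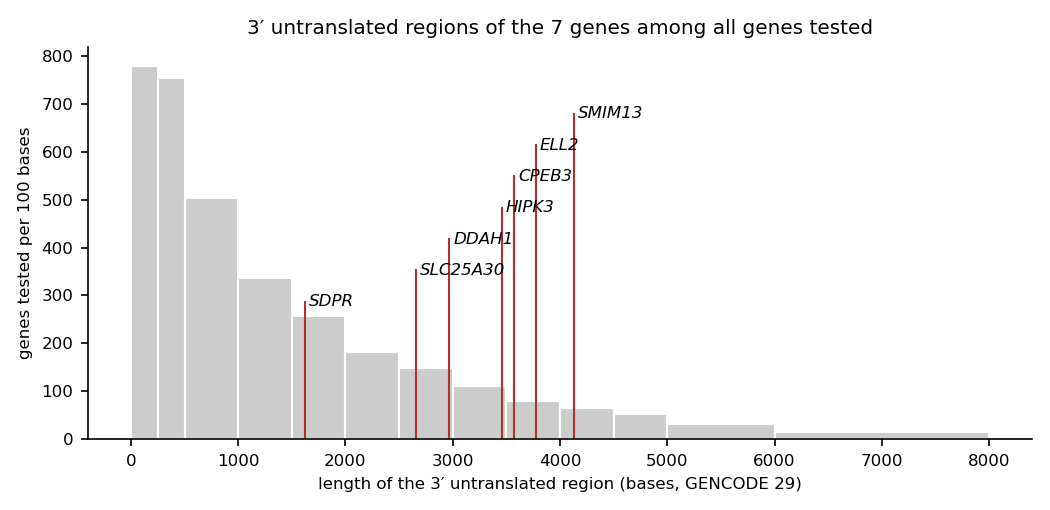
The histogram shows the genes tested per 100 bases of 3′ untranslated region (y axis) by its length in bases (x axis, cut at 8000), and red lines mark the 7 genes. SDPR lies nearest the bulk at 1621 bases and SMIM13 farthest at 4131.

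The 7 genes lie on 7 chromosomes (1, 2, 5, 6, 10, 11 and 13). Of the 14 nearest genes tested on either side of them in the RefSeq order, 0 passed with siRNA 2 by edgeR, DESeq2 or limma on log2(TPM + 1), with 0 also at an unadjusted p under 0.05 by edgeR. With siRNA 4, 4 were lower by edgeR, where 7.95% of all genes were. The 4 were CYR61 beside DDAH1 (log2 -0.57, edgeR adjusted p = 0.026), CAST beside ELL2 (-0.95, 0.0209), NEDD9 beside SMIM13 (-0.87, 0.0158) and NABP1 beside SDPR (-0.59, 0.0425). With siRNA 2 these 4 neighbours, singled out here by their siRNA 4 values, stood between -0.06 and 0.06. DDAH1, ELL2, SMIM13 and SDPR were at -1.66, -1.93, -3.08 and -1.85 in that contrast, which helped to choose them. Nothing is therefore read from the gap, and a part played by position was not tested. The neighbours of HIPK3 (CSTF3 and KIAA1549L), CPEB3 (BTAF1 and MARCH5) and SLC25A30 (TPT1-AS1 and COG3) did not pass with either siRNA.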

How the data were processed

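Per the submitters' processing notes, which name RSEM, the authors' first table gives expected counts for 23686 gene symbols, estimated from aligned reads before deposit and not normalized (non-whole estimates made up 5.75% to 6.29% of each column). The authors' second deposited table gives TPM, scaled for length and depth. FastQC 0.11.1, STAR 2.5.3a, RSEM 1.3.3 and build hg19 are named in the submitters' processing notes. No source used here names the annotation.

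Expected counts were rounded. The 14481 genes that reached 10 reads in 2 or more libraries were tested with edgeR 4.0.16 (TMM, glmQLFit, glmQLFTest; R 4.3.3), Benjamini-Hochberg adjusted over all genes, with 0.05 as the threshold. A fit of line plus siRNA (2 residual degrees of freedom) gave each siRNA against control, siRNA 4 against siRNA 2 and HCC15 against A427. A fit of line by arm (2 residual degrees of freedom) gave the difference in response. An SE is the size of the log2 fold change over the square root of its F. The siRNAs mark the same reagent in both lines and are a term of the first fit. The p-values measure how far effects differ between libraries of other lines or siRNAs, not between replicates.

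DESeq2 1.42.0, DESeq2's size factors in edgeR, limma 3.58.1 on log2(TPM + 1) and log2(TPM + 0.1), no filter, and leaving out each library were the alternatives.

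The 7 genes and the lists were chosen with earlier results of these data known. Of the related genes, the naming rule took all paralogs and up to 3 others per list that passed with both siRNAs, and the text marks those named after their values were seen. Sequences came from RefSeq, and 97.2% of the genes tested matched it. Files and annotation differ in build, so annotation gave lengths, neighbours and overlaps only. Coordinates shown are those of the RefSeq promoters.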

Additional observations from a re-analysis of the deposited data

Results flagged for a closer look

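The genes looked at were the 7, the related genes named, the neighbours and the genes nearest to the mean of the 7. Of these, 12 passed for siRNA 4 against siRNA 2 (edgeR, adjusted p over all genes), where 16.5% of all genes tested did. The share among the genes looked at was not computed, and some were named after their values were seen, so nothing is read from the count. SMIM13 was higher with siRNA 4 by log2 1.66 (SE 0.28, edgeR adjusted p = 0.00684) and lower than control with both. CAV1 was higher with siRNA 4 by 1.30 (SE 0.16, edgeR adjusted p = 0.00233) and lower than control with both. DYRK2 was lower with siRNA 4, with log2 -1.52 (SE 0.18, edgeR adjusted p = 0.00201), being at -0.74 against control with siRNA 4 and 0.79 with siRNA 2. PTRF was higher with siRNA 4 by 0.48 (SE 0.11, edgeR adjusted p = 0.0262), the size of its fall with siRNA 2. Of the related genes named after their values were seen, PRMT3 was at -1.03, TOB1 at -1.13 and EAF1 at -0.83 for siRNA 4 against siRNA 2 (edgeR adjusted p between 0.00434 and 0.0112). Of the neighbours, BCL10 was at 0.49, CAST at -0.96, CYR61 at -0.64, NABP1 at -0.56 and NEDD9 at -0.81 (edgeR adjusted p between 0.0149 and 0.0465). The cause of these differences was not tested.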

How the results depend on the processing

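The counts of the 7 genes past the threshold for siRNA 4 against siRNA 2, HCC15 against A427 and the difference in response were the same under DESeq2, DESeq2's size factors in edgeR, limma on both TPM scales and no filter on low counts. With 1 library left out, the count for siRNA 4 against siRNA 2 ranged from 0 to 1, being 0 without the HCC15 siRNA 2 library, where SMIM13 had log2 1.38. Against control, a count examined after the data were seen, 3 to 7 passed with siRNA 4 and 1 to 7 with siRNA 2 when 1 library was left out, the lowest without the HCC15 control library, and 6 with each by limma. For HCC15 against A427 the count was 3 without the A427 siRNA 4 library and 2 otherwise. The related genes past the threshold numbered 0 to 18 with siRNA 4 and 0 to 13 with siRNA 2 when 1 library was left out, and 11 with siRNA 4 by limma on log2(TPM + 0.1). The value 0 came without the HCC15 control library.

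Of 378 single-gene alternatives, 26 turned the sign of a value, each not past the threshold on either side; the cause was not tested. By limma on log2(TPM + 1) and log2(TPM + 0.1), siRNA 4 against siRNA 2 was -0.05 and -0.05 for HIPK3 and -0.04 and -0.05 for ELL2, and it was -0.00 for SDPR on the first scale. HCC15 against A427 was -0.05 and -0.08 for ELL2 and -0.07 and -0.09 for SLC25A30. The difference in response of SDPR was 0.12 by DESeq2. With 1 library left out, siRNA 4 against siRNA 2 ranged from -0.36 to 0.04 for DDAH1, from -0.05 to 0.13 for HIPK3, from -0.34 to 0.42 for ELL2 and from -0.33 to 0.00 for SLC25A30. HCC15 against A427 ranged from -0.14 to 0.04 for HIPK3, from -0.16 to 0.31 for ELL2, from -0.06 to 0.32 for CPEB3 and from -0.10 to 0.16 for SLC25A30. The difference in response ranged from -0.35 to 0.04 for DDAH1 and from -0.91 to 3.16 for SDPR, which had 6 reads in A427 in all.

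By limma on log2(TPM + 1) the effects on SDPR were -0.89 with siRNA 4 and -0.89 with siRNA 2 and no longer passed (limma adjusted p = 0.201 and 0.223). The difference in response could not be fitted without either control library. The fit of line plus siRNA already sets each silenced library against the control of its own line. With 1 library per line and siRNA, no result has a replicate check.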
